A study of Mus musculus with 912 samples.

Results

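VIP interneuron nuclei are the nuclei that the authors' labels class as VIP among the hippocampal nuclei sorted from the home cage (HC) or 1 h after exposure to an unfamiliar environment (NE). Of the 912 nuclei in the series, 360 belong to these groups and 80 of them carry the VIP label. Nuclei were kept where at least 4000 genes had a level above 1 in log2(TPM+1), the logarithm of TPM (transcript abundance), which is scaled by gene length and depth. 67 VIP nuclei passed, of 339 nuclei that passed in all, and these 67 are described here. The members nearest the minimum had 4460 and 4702 genes, and the nuclei nearest it from below had 3974 and 3802. The comparison labels are the excitatory neurons of CA1 (100 nuclei), the dentate gyrus (DG, 79), the subiculum (Sub, 38) and CA3 (27).

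All mice were wild-type C57BL6 females between 7.75 and 9.0 weeks of age, and each nucleus was made into its own SmartSeq2 library. HC mice stayed in the home cage. The 1 h mice had explored a large cage with huts and tunnels new to them, and tissue was taken 1 h later. Neuronal nuclei (NEUN+) were sorted by staining for the PROX1 and CTIP2 proteins and for FOS, a transcription factor that neurons make after activity. No nucleus of a FOS+ gate came from a HC mouse among the VIP nuclei, so the members fall into HC (23 nuclei), 1 h FOS− (17) and 1 h FOS+ (27). The PROX1+CTIP2− gate, set to collect VIP interneurons, held 62 of the 67 members, from 4 mice of 8.875 to 9.0 weeks. Mouse 1 (HC) gave 14 members, mouse 2 (HC) 6, mouse 3 (1 h) 10 FOS− and 13 FOS+, and mouse 4 (1 h) 5 FOS− and 14 FOS+. Mice 1 and 3 (9.0 weeks) shared a date in the labels, and mice 2 and 4 (8.875 weeks) shared another. Each date thus held both a HC and a 1 h mouse, and differences between mice of a condition cannot be told apart from date. The other 5 members came from other gates. All 13 VIP-labelled nuclei under the gene minimum came from the PROX1+CTIP2− gate, and 10 of them were 1 h FOS− nuclei. The members had a median of 560046 counts per nucleus (51538 to 1756813) and 5974 genes, against 1225819.5 counts and 6657.5 genes in the 244 excitatory nuclei.

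VIP interneurons are inhibitory neurons that release GABA and, in most of them, the vasoactive intestinal polypeptide. They arise from the caudal ganglionic eminence, and the transcription factor PROX1, which also marks dentate granule neurons, is kept in the mature cells. In the hippocampus they form several types. Interneuron-selective cells, many with calretinin (Calb2), inhibit other interneurons and so release pyramidal neurons from inhibition, while basket cells with cholecystokinin (Cck) contact pyramidal somata and carry the cannabinoid receptor CB1 (Cnr1).

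Vip lies on the forward strand at chr10:5639218-5647617 and Cck on the reverse strand at chr9:121489824-121495694 (GRCm38, GENCODE vM21). The members fell into 2 sets by the level of Vip, and Cck and Reln, the gene of the secreted protein reelin, were lower in the set with high Vip. The 250 bases before the transcription start of these 3 genes are shown for that reason, from RefSeq on GRCm38.p6, read on the strand of the gene. Capitals mark TATAAA, the letters of a TATA box, and TGACG or its reverse complement CGTCA, the core of the element bound by CREB, a transcription factor that responds to cAMP and calcium. The Vip window is chr10:5638968-5639217 (+), the Cck window chr9:121495695-121495944 (−) and the Reln window chr5:22344706-22344955 (−).
Vip: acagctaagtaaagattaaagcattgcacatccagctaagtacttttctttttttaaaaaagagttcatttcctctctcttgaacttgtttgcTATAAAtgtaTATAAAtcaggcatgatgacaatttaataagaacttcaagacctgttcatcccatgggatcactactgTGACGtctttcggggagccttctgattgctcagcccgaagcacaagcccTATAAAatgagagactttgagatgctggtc
Cck: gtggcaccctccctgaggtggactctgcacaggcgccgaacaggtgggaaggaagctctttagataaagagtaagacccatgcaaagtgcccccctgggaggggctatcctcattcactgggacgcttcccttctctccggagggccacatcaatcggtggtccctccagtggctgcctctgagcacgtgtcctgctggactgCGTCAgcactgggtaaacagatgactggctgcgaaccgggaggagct
Reln: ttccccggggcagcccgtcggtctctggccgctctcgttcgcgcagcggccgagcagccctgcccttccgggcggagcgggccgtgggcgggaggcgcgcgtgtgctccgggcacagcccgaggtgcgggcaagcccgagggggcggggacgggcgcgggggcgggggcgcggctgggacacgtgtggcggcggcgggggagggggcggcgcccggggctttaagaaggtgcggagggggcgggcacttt
The Vip window held TATAAA at 157, 147 and 30 bases before the start and TGACG at 79 bases before it. The Cck window held CGTCA at 47 bases before the start and no TATAAA, and the Reln window held none of these letters. On both strands of the same 250-base windows, TATAAA was found in 12.4% of 32851 RefSeq promoters, TGACG in 17.8% and the full palindrome TGACGTCA, which contains TGACG, in 1.55%. A match describes letters only.

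The label was checked against the 4 markers of VIP interneurons. Of the 62 members in the PROX1+CTIP2− gate, 61 had Vip above 1, 58 Gad2 (an enzyme of GABA synthesis), 47 Prox1 and 62 Adarb2 (an RNA-editing family member of caudally derived interneurons), and 45 had all 4 markers. Of the 18 nuclei of other labels in the same gate, 17 had Vip above 1, 9 Gad2, 7 Prox1 and 15 Adarb2, and 2 had all 4, so a Vip level above 1 did not set the VIP label apart within the gate. Of the 244 excitatory nuclei, 2 had Vip above 1, 19 Gad2, 74 Prox1 and 199 Adarb2, and none had all 4. Slc17a7, the vesicular glutamate transporter VGLUT1, was above 1 in 9 of the 62 members and in 241 of the 244 excitatory nuclei. Vip, Gad2, Prox1, Adarb2 and Slc17a7 were among the 51 genes the authors' classifier used, so these counts describe the label and do not test it.

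The 5 members outside that gate lacked 2 of the 4 markers. Vip and Prox1 were at 0 in 5 of 5, which allows a share of up to 60.0% of nuclei with a count, while Gad2 and Adarb2 were above 1 in 5 of 5. Such limits are 3 counts over the number of nuclei, cover counting error only, treat nuclei of a mouse as independent and do not limit the share of nuclei that express the gene. In the PROX1−CTIP2+ gate, 2 nuclei of 1 mouse had Npy (neuropeptide Y) at 8.74 and 12.27 and Htr3a (the ionotropic serotonin receptor) at 8.53 and 6.13. In the PROX1−CTIP2− gate, 1 nucleus had Sst (somatostatin) at 15.31, Reln at 9.81 and Htr3a at 0. The other 2 nuclei of that gate had Cck at 8.62 and 12.85 and Htr3a at 7.82 and 8.11. Results below are given for the 62 members of the PROX1+CTIP2− gate unless stated. The gate was not pure either. Besides the 62 members it held 9 nuclei labelled Ivy (an interneuron type), 7 labelled Th (thalamus), 1 DG and 1 Sub. The Th nuclei had medians of 7.63 for Slc17a6, a glutamatergic gene, and 0 for Gad1 and Gad2, so they are not interneurons by these genes.

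Vip split the 62 members into separate groups. In 40 members it lay between 8.94 and 15.21 (median 13.35), from 89 to 27004 counts, and in 22 it lay between 0 and 5.77 (median 2.96), from 0 to 17 counts. No member lay between 5.77 and 8.94, and a division at 7, set after these values were seen, is used below. Both groups were present in all 4 mice. The median depth of members with low and high Vip was 689350 and 560046 counts in mouse 1, 375544 and 398328 in mouse 2, 1228008 and 293769 in mouse 3 and 395264 and 575520 in mouse 4, so members with low Vip were deeper in 2 mice and shallower in the other 2. The 18 nuclei of other labels in the same gate had Vip between 0 and 5.46 (0 to 12 counts), the range of the members with low Vip, and 17 of the 18 had at least 1 count. None of the 259 nuclei of the other gates had a Vip count, which allows a share of up to 1.16% with a count. The source of the few Vip counts in the PROX1+CTIP2− gate was not tested.

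**Figure D1:**
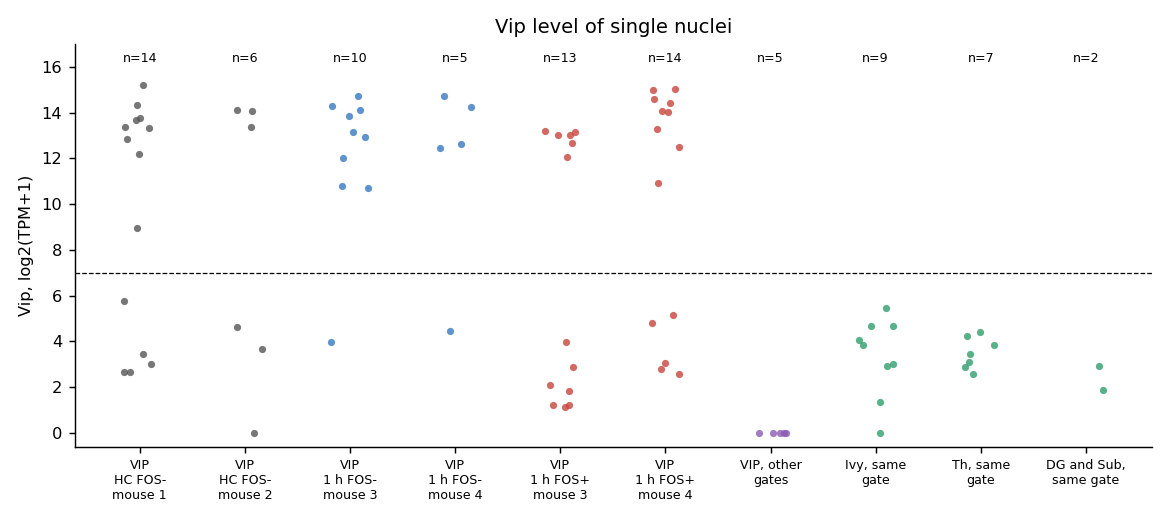
Vip level of single nuclei in log2(TPM+1) on the y axis, by label, condition and mouse on the x axis, 1 point per nucleus, with the number of nuclei above each column and a dashed line at 7. Points of the VIP columns lie at or above 8.94 or at or below 5.77 in each of the 4 gate mice, and the Ivy, Th, DG and Sub nuclei of the same gate lie in the lower range.

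The members with low and high Vip were alike in the medians of several genes of the label and apart in others, among them Prox1. Gad1 had a median of 8.52 in the members with high Vip and 8.89 in those with low Vip. Adarb2 stood at 9.64 and 9.72, Synpr (a synaptic vesicle protein) at 9.70 and 9.60, and Htr3a at 8.58 and 9.55. In the Ivy nuclei of the gate the medians were 2.92 for Adarb2, 1.04 for Synpr and 0.66 for Htr3a. The Th nuclei had Adarb2 at 8.30 and Synpr and Htr3a at 0. The classifier used all 3 genes. The peptide and subtype genes named next, Cck, Reln, Penk, Cxcl14 and Calb2, were not in the classifier.

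Cck, the peptide of CB1 basket cells, was above 1 in 22 of 22 members with low Vip (median 10.57) and in 34 of 40 with high Vip (median 5.37). Reln was above 1 in 16 of 22 with low Vip (median 7.06) and in 11 of 40 with high Vip (median 0). Cxcl14, a chemokine gene of caudally derived interneurons, was above 1 in 20 of 22 (median 7.64) and in 20 of 40 (median 0.93). In the Ivy and Th nuclei of the gate the medians were 9.61 and 9.99 for Cck, 0.99 and 0 for Reln and 0 and 0 for Cxcl14. High Cck was thus not particular to the members with low Vip. Means of all 3 genes were lower in the members with high Vip in 4 of 4 mice, as were 9.04% of the 9288 genes with a mean level above 1 in these members, while 4.93% were higher in 4 of 4. The direction over mice is thus common among all genes, and the size is given for the genes named, with differences of −3.05, −3.17, −3.29 and −0.42 for Cck in mice 1 to 4. The same held in 4 of 4 mice for Calb1 (the calcium buffer calbindin, medians 0 and 3.73) and for Nr2f2 (COUP-TFII, a transcription factor of caudal and preoptic interneurons, medians 1.42 and 5.65). Cnr1, the gene of CB1, was above 1 in 39 of 40 members with high Vip (median 8.57) and 22 of 22 with low Vip (median 9.58). Its mean was lower with high Vip in 3 of 4 mice.

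Penk, which encodes the opioid precursor proenkephalin, went the other way. It was above 1 in 36 of 40 members with high Vip (median 10.57) and in 13 of 22 with low Vip (median 1.47), and its mean was higher in the members with high Vip in 4 of 4 mice, by 6.60, 2.95, 5.34 and 3.33. Prox1 had medians of 6.10 and 3.82, also higher with high Vip in 4 of 4 mice. Calb2 was above 1 in 24 of 40 with high Vip and in 6 of 22 with low Vip, and was higher with high Vip in 3 of 4 mice. With a level above 7 as the bound, 4 of the 40 members with high Vip had both Cck and Calb2, 14 Cck alone, 10 Calb2 alone and 12 neither. Of the 22 with low Vip, 1 had both, 12 had Cck alone, 3 Calb2 alone and 6 neither. The division was made on a measured level, so none of these differences was tested.

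**Figure D2:**
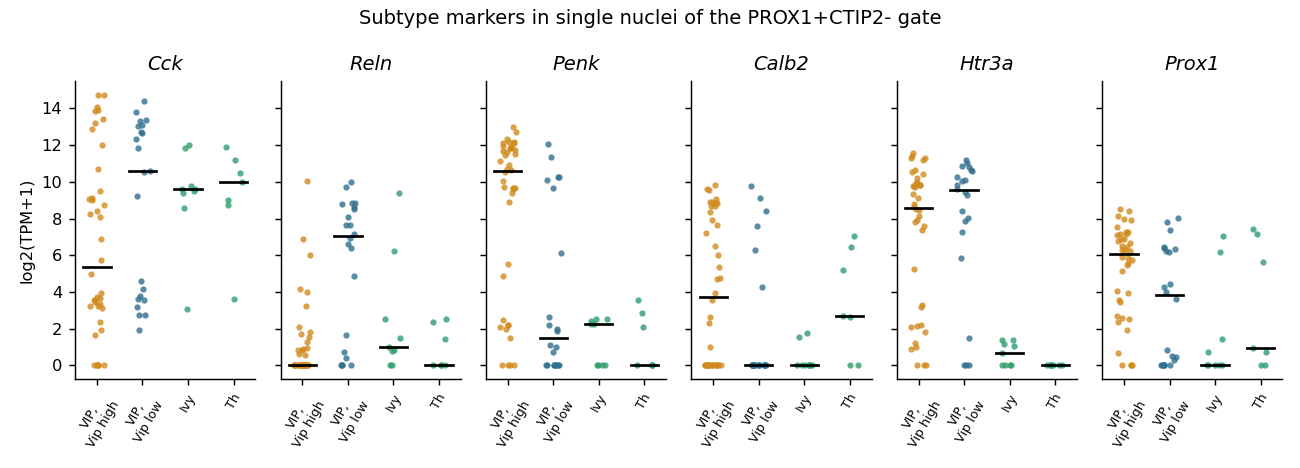
Levels of 6 subtype genes in log2(TPM+1) on the y axis in nuclei of the PROX1+CTIP2− gate, 1 point per nucleus, with the median as a bar. Members with high Vip have a Cck median of 5.37, a Reln median of 0 and a Penk median of 10.57, against 10.57, 7.06 and 1.47 in members with low Vip. Ivy and Th nuclei have little Htr3a or Penk and Cck medians of 9.61 and 9.99.

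The share of members with low Vip differed between conditions in these nuclei, with 2 mice at most per condition. In HC it was 5 of 14 in mouse 1 (35.7%, exact Clopper-Pearson 95% interval 12.8 to 64.9) and 3 of 6 in mouse 2 (50.0%, 11.8 to 88.2). In 1 h FOS− it was 1 of 10 in mouse 3 (10.0%, 0.253 to 44.5) and 1 of 5 in mouse 4 (20.0%, 0.505 to 71.6). In 1 h FOS+ it was 7 of 13 in mouse 3 (53.8%, 25.1 to 80.8) and 5 of 14 in mouse 4 (35.7%, 12.8 to 64.9). In both mice the FOS+ members held the larger share of low Vip, with wide intervals that cover counting error only. Within mouse 3 the FOS+ members with low Vip had a median of 1415344 counts and those with high Vip 290000.5, and the part of depth in the share was not tested. Without the gene minimum the FOS− shares were 7.14% of 14 nuclei in mouse 3 and 27.3% of 11 in mouse 4. A comparison over 2 mice cannot reach p under 0.05 in an exact test, and none was made.

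The levels by label, averaged per mouse, give the profile of VIP nuclei beside the excitatory ones. The labels were assigned by the authors from the same transcripts, so the differences are a description. In 9959 genes with a mean level above 1, 1.46% were higher in the 4 PROX1+CTIP2− mice (VIP members) than in each of the 9 mice with excitatory nuclei, and 3.4% were lower than in each. Among genes of GABA synthesis and transport, Gad1 stood at 7.43, 7.95, 8.15 and 8.35 in mice 1 to 4 and between 0.07 and 4.70 in the excitatory mice. The mean over nuclei was 4.01 in DG and 0.18 in CA1. Gad2 stood at 6.03, 6.26, 7.11 and 6.24 against 0.13 to 0.45. The vesicular GABA transporter Slc32a1 was lower in level, at 4.52, 2.15, 3.34 and 2.32, and above 1 in 44 of 62 members and in 2 of 244 excitatory nuclei.

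Of the 12 glutamatergic genes, 8 had a mean level above 1, and 6 of these were lower in each VIP mouse than in each excitatory mouse. Slc17a7 was 0.43, 1.99, 0.78 and 0 in the VIP mice and 6.03 to 8.29 in the excitatory mice. Nrgn, which encodes the calmodulin-binding neurogranin, was 1.68, 0.75, 1.20 and 0.35 against 3.17 to 5.76. Itpka, a kinase of dendritic spines, was at 0 in 62 of 62 members, which allows a share of up to 4.84% with a count, and above 1 in 107 of 244 excitatory nuclei. Camk2a, the calcium-dependent kinase often used to mark excitatory neurons, was above 1 in 57 of 62 members, at 6.72, 6.03, 7.08 and 7.20 against 7.48 to 10.05. The groups did not overlap, but the VIP level was far from 0.

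Genes in the list of caudal interneuron transcription factors were at moderate levels. Prox1 stood at 4.14, 5.31, 4.63 and 4.33 and overlapped the excitatory range of 0 to 5.81 because of DG (mean over nuclei 5.52). Npas1, a bHLH-PAS repressor, stood at 4.59, 2.19, 5.03 and 4.49 against 0 to 0.06. Dlx1, a homeobox gene of the ganglionic eminences, stood at 6.97, 5.29, 6.33 and 4.44 against 0 to 0.55. Of the markers of medial interneurons, Lhx6 stayed at or under 0.76 in each VIP mouse, Pvalb at or under 0.33 and Sst at or under 1.38, and for none of the 8 genes were the mice of the 2 groups apart.

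Among subtype genes, Cnr1 stood at 8.20, 9.01, 8.86 and 8.73 in the VIP mice and 0 to 4.74 in the excitatory mice, and Htr3a at 6.57, 8.18, 8.16 and 6.65 against 0 to 0.08. Igf1, the insulin-like growth factor, stood at 8.07, 4.65, 6.20 and 7.02 against 0.02 to 0.31. Penk stood at 6.48, 7.31, 6.58 and 6.91 against 0 to 4.15. Cck is not a mark of VIP nuclei on this scale. It stood at 7.06, 4.04, 8.21 and 7.46, with 8.01 to 11.58 in the excitatory mice and a mean of 10.78 over CA1 nuclei. Tac2 (neurokinin B) and Calb2 were higher than in each excitatory mouse, at 1.60 to 4.02 and 3.03 to 4.78. Lamp5, Ndnf and Chat, also among the subtype genes, stayed at or under 0.78 in each VIP mouse.

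Receptors differed too. Erbb4, the neuregulin receptor of interneurons, stood at 7.89, 8.24, 6.00 and 7.31 against 0 to 0.28, and Grik1, a kainate receptor subunit, at 2.72, 6.61, 4.26 and 3.71 against 0 to 0.62. Adra1b, an alpha-1 adrenergic receptor, stood at 3.90, 2.58, 3.19 and 1.67 against 0 to 0.51. In the Ivy nuclei of the PROX1+CTIP2− gate the medians were 7.52 for Erbb4, 7.76 for Grik1 and 0 for Adra1b. Of the genes above, Gad1 (9.59), Gad2 (9.65), Dlx1 (6.72) and Cnr1 (6.96) were also high in Ivy nuclei, while Npas1 and Igf1 had medians of 0. High Erbb4, Grik1, Gad1, Gad2, Dlx1 and Cnr1 were thus not particular to VIP nuclei. The receptors for the peptide itself were low in the members. Vipr1 was above 1 in 3 of 62 members and in 56 of 244 excitatory nuclei, at 0 to 0.45 in the VIP mice and 0.73 to 1.77 in the excitatory mice. Vipr2 was above 1 in 3 of 62 and 3 of 244. Of the 10 genes of peptide processing and secretion, which make and load such peptides into vesicles, Pam alone, the amidating enzyme, did not overlap, at 8.45 to 8.71 against 6.78 to 7.83.

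**Figure D3:**
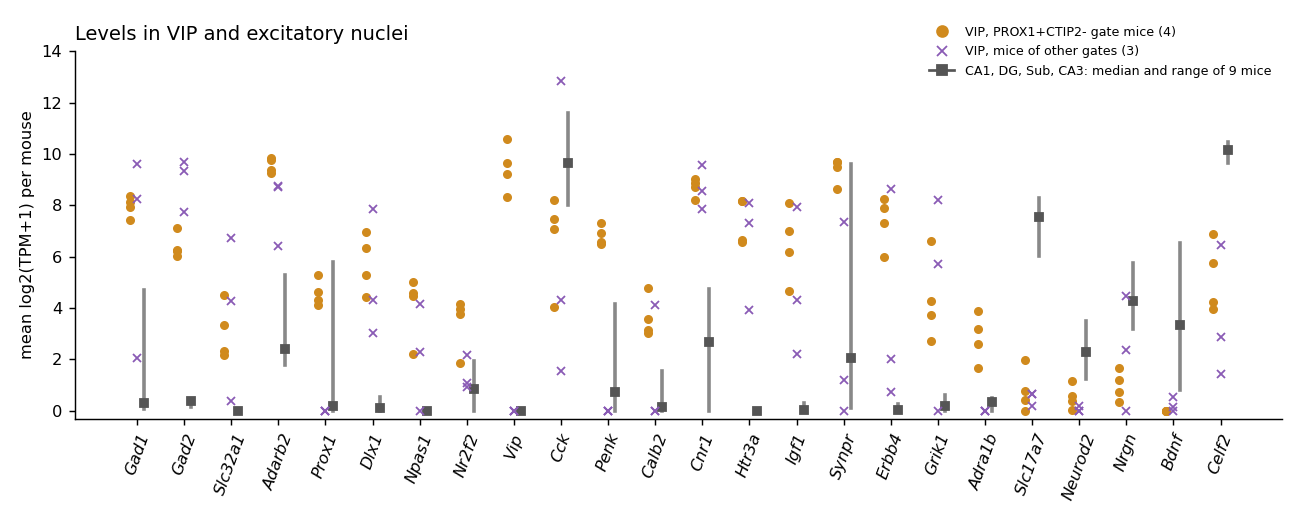
Mean log2(TPM+1) per mouse on the y axis for 24 genes on the x axis. Circles are VIP members of the 4 PROX1+CTIP2− mice, crosses the VIP-labelled nuclei of 3 mice of other gates, and squares with bars the median and range of 9 mice with CA1, DG, Sub or CA3 nuclei. Gad2 and Erbb4 are high in the circles and near 0 in the bars, Slc17a7 is the reverse, Prox1 overlaps, and the crosses are at 0 for Vip, Prox1 and Penk.

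A test independent of the label used the protein gate. Counts of all passing nuclei were summed per mouse whatever their label, and the 4 PROX1+CTIP2− mice (80 nuclei, 62 of them VIP) were compared with the mean of the 2 PROX1−CTIP2+, 3 PROX1+CTIP2+ and 4 PROX1−CTIP2− mice by edgeR's quasi-likelihood test with Benjamini-Hochberg adjustment. Genes of GABA synthesis and of interneurons were higher and genes of glutamatergic neurons lower in the PROX1+CTIP2− mice. Of 21342 genes, 214 were higher (1.0%) and 135 lower (0.633%) at an adjusted p under 0.05. Irrespective of the test, 1.11% of the genes were higher in each of the 4 mice than in each of the other 9, and 1.58% were lower. No date in the labels was shared between gates, so gate and date cannot be told apart, and whether the PROX1+CTIP2− and PROX1−CTIP2− dates share animals is not stated.

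Of 6 genes of GABA synthesis and transport, 2 were higher, none lower, and the median log2 fold change was 3.58, against 0.09 over all genes tested. Gad2 had 582 CPM (counts scaled to a common library size) in the gate against 24.2 in PROX1−CTIP2+, 0.624 in PROX1+CTIP2+ and 117 in PROX1−CTIP2− (log2 fold change 5.57 ± 0.70 SE, edgeR adjusted p = 0.00348). Gad1 had 775 CPM against 4.91, 237 and 136 (3.84 ± 0.74, edgeR adjusted p = 0.0267). Slc32a1 did not pass (edgeR adjusted p = 0.105), though it was higher in each of the 4 mice than in the other 9. The PROX1−CTIP2− gate held other interneurons (8 Pvalb, 3 Ivy and 3 VIP labels). Against that gate alone Gad2 did not pass (2.31, edgeR adjusted p = 0.336), nor did Gad1 (2.51, 0.372).

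Of 12 glutamatergic genes 4 were lower and none higher (median log2 fold change −3.40). Slc17a7 had 6.52 CPM against 534, 503 and 409 (−6.24 ± 1.23, edgeR adjusted p = 0.028). Tbr1, a transcription factor of glutamatergic neurons, had 0.65 CPM against 31.6, 43.1 and 23.6 (−5.58 ± 0.65, edgeR adjusted p = 0.00225). Nrgn and Itpka were the other 2. Camk2a had 499.6 CPM against 1060.3, 2074.5 and 685 and did not pass (edgeR adjusted p = 0.112).

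Of 12 genes in the list of caudal transcription factors 6 were higher and none lower (median 6.00), namely Prox1, Sp8, Npas3, Dlx1, Dlx2 and Dlx5. The Dlx genes belong to the ganglionic eminences and not to the caudal one alone, so their calls do not set caudal interneurons apart. Prox1 had 289 CPM against 0.402 in PROX1−CTIP2+, 663 in PROX1+CTIP2+ and 0.231 in PROX1−CTIP2−. The call rests on the gates without PROX1 protein, and the granule neurons had more. Because the gate was sorted on PROX1 protein, the Prox1 call here and against the PROX1−CTIP2− gate describes the sort and tests nothing further. Dlx1 had 208 CPM against 6.29, 0.103 and 13.7 (6.46 ± 1.17, edgeR adjusted p = 0.0195), and Npas3, a bHLH-PAS factor, 99.8 against 12.6, 0.667 and 16.8 (4.36 ± 0.80, 0.0203). None of the 8 medial markers passed in either direction (median −0.75).

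Of 20 subtype markers tested 8 were higher and none lower (median 4.21). These were Vip, Cnr1, Penk, Tac2, Igf1, Cxcl14, Synpr and Adarb2. Vip had 5771 CPM in the gate and no counts in the other 9 mice, at least 631020-fold higher against a floor of 3 counts over those mice (edgeR adjusted p = 0.000268). Adarb2 had 1622 CPM against 39.0, 236 and 85.2 (4.14 ± 0.49, edgeR adjusted p = 0.00263). Cnr1 had 2062 CPM against 177, 10.4 and 290 (4.65 ± 0.91, 0.0276), Penk 835 against 112, 30.8 and 23.0 (4.28 ± 0.86, 0.0311) and Igf1 387 against 1.04, 0.191 and 26.1 (7.83 ± 1.14, 0.00706). Synpr had 1225 CPM but 1488 in PROX1+CTIP2+, as Prox1 did. Cck had 1387 CPM against 1330, 581 and 911 (edgeR adjusted p = 0.5).

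Of 17 receptor genes 5 were higher and none lower (median 2.61). Erbb4 had 641 CPM against 3.12, 0.0051 and 62.8 (8.80 ± 1.12, edgeR adjusted p = 0.00374), Adra1b 104.5 against 1.57, 0.441 and 1.41 (6.66 ± 0.88, 0.00444), and Grik1 175 against 28.5, 0.0102 and 27.8 (6.03 ± 0.86, 0.0069). Htr2c, a serotonin receptor, had 126 CPM against 18.3, 0.518 and 60.2 (3.90 ± 0.53, 0.00494), and Cnr1 is given above. Htr3a had 865 CPM against 6.13, 0 and 10.4, and did not pass (edgeR adjusted p = 0.056). None of the 10 peptide processing genes passed (median 0.30). Of 20 activity genes Igf1 alone passed (higher, list median −1.97). Of the classifier genes 24 of 51 were higher and 7 lower. The authors chose these genes from the same transcripts to separate the cell types, so this count describes that choice and tests nothing further. None of the 6 pyramidal field markers passed. Of the 5 dentate granule markers Prox1 was higher, which follows from the sort on its protein. Against the PROX1−CTIP2− gate alone, of the genes of these lists named here as called, Vip (edgeR adjusted p = 0.00281), Prox1 (0.0257), Adarb2 (0.0257), Adra1b (0.0497), Tbr1 (0.011) and Itpka (0.00582) still passed, and Cnr1 (0.4), Penk (0.123), Igf1 (0.292), Erbb4 (0.316), Grik1 (0.351), Dlx1 (0.338) and Slc17a7 (0.101) did not. Nor did Sp8 (0.0601), Dlx2 (0.0863), Synpr (0.131), Tac2 (0.267), Cxcl14 (0.285), Npas3 (0.378), Nrgn (0.429), Dlx5 (0.539), Htr2c (0.58), Gad1 and Gad2.

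**Figure D4:**
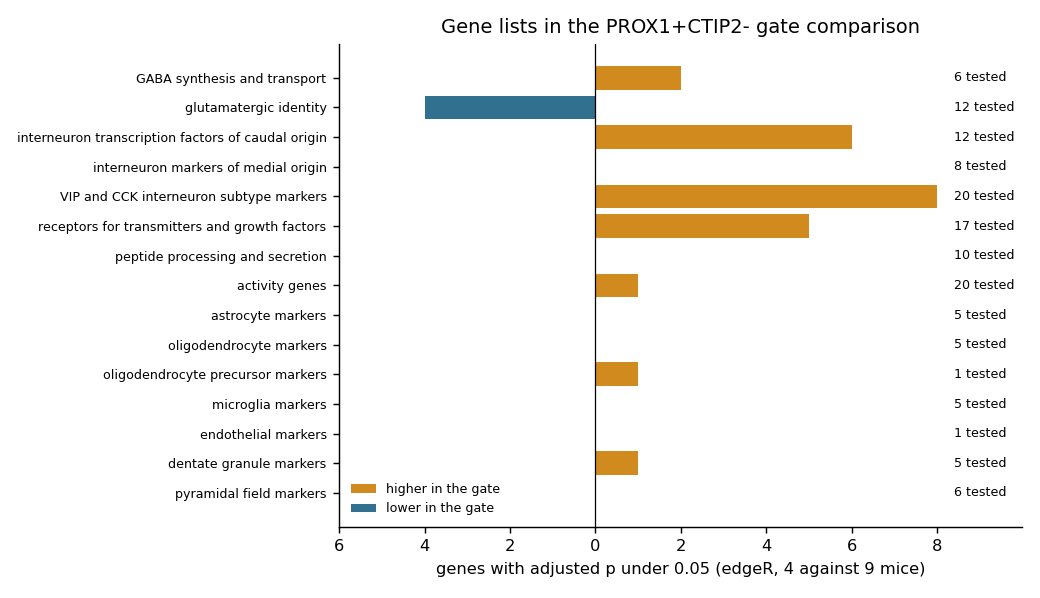
Number of genes with an edgeR adjusted p under 0.05 in the comparison of 4 PROX1+CTIP2− mice with 9 mice of other gates, by gene list, with higher genes to the right and lower genes to the left of 0 on the x axis and the number tested at the right. Subtype markers (8 of 20), the list of caudal transcription factors (6 of 12, Prox1 and Dlx genes included) and receptors (5 of 17) point right. Glutamatergic genes (4 of 12) point left.

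By fold change, the 10 leading higher genes whose mice did not overlap were Vip, Egln3, Rgs16, Asic4, Tac2, Pthlh, Sall1, Grpr, Dlx2 and Rpp25. Most had a gate at or near no counts, so their fitted folds depend on the prior count and CPM is given. Grpr, the receptor for gastrin-releasing peptide, had 264 CPM in the gate against 0.0826, 0.0525 and 0.190 (11.22 ± 0.75), and per mouse a mean log2(TPM+1) of 4.47, 2.96, 4.20 and 2.72 against 0 to 0.19 in the other 9 mice. Sall1, a zinc finger repressor, had 70.0 CPM against at most 0.0984, and Pthlh, a parathyroid hormone-like peptide, 64.5 against at most 0.827. Rgs16, a regulator of G-protein signalling, had 29.2 CPM against at most 0.0167, and Egln3, a prolyl hydroxylase, 32.0 against none (at least 4847-fold higher).

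The 10 leading lower genes were Rprml, Slit2, Slc26a4, Slc26a10, Itpka, Ptgs2os, Kcng1, Gm2274, Gm26070 and Apobec4. Slit2, a secreted axon guidance protein, had no counts in the 4 mice and 42.0, 26.2 and 105.7 CPM in the other gates (at least 1060-fold lower, edgeR adjusted p = 0.0194). Rprml had none against 129.8, 68.6 and 57.6 (at least 1368-fold lower, edgeR adjusted p = 0.000268). Kcng1, a modifier subunit of potassium channels, had 0.0127 CPM against 36.1, 49.2 and 56.8. Slc26a4, an anion exchanger, had none against 87.1, 12.6 and 42.5 (at least 791-fold lower).

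Glial and vascular transcripts were low. Of the astrocyte, oligodendrocyte, microglia and endothelial lists, none of the genes tested passed. Pdgfra, which marks oligodendrocyte precursors, had 7.94 CPM against 0.153, 0.504 and 0.308 and was higher (4.78 ± 0.92, edgeR adjusted p = 0.0267). It was above 1 in 4 of 62 members, and Cspg4, another marker of precursors, was at 0 in 62. The summed level of the 5 microglia markers ran from 0.87 to 1.34 in the VIP mice and from 0.38 to 2.65 in the excitatory mice, and that of the 5 oligodendrocyte markers from 2.71 to 7.28 and from 5.82 to 13.28.

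The PROX1+CTIP2− mice, with shallower nuclei, yielded fewer genes before depth was equalised. Unthinned, the mean over mice of the median number of genes with a count was 7134.5 ± 599.8 (SD, n = 4) in the PROX1+CTIP2− mice and 8400.5 ± 829 (n = 9) in the others, a difference of −1266 (exact permutation test, two-sided, p = 0.0252). With each nucleus thinned to 100000 counts, leaving out 1 nucleus of the gate, it was 4917 ± 186 (4679 to 5098) and 5235 ± 663 (4128 to 6129.5), and the difference of −318 did not pass (exact permutation p = 0.369). By label, thinned VIP members had a median of 4855 genes, between DG (4225) and CA1 (5224), with 5508.5 in Sub and 6053 in CA3.

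The conditions were compared within the VIP label. The question was which genes changed in VIP interneurons after NE exposure and with FOS. No gene passed in edgeR's test on counts summed per mouse and condition, over 2 mice for 1 h FOS+ and 3 each for 1 h FOS− and HC, of which 1 in each lay outside the PROX1+CTIP2− gate. The share called was 0.0% of 14740 genes in 1 h FOS+ against HC, in 1 h FOS− against HC and in 1 h FOS+ against 1 h FOS−. Before adjustment, 478, 890 and 717 genes had p under 0.05. DESeq2 called 102, 306 and 174, and limma on mean log2(TPM+1) called 0 in each. The lowest edgeR adjusted p were 1, 0.758 and 0.967. Even Fos, the gene of the protein sorted on, did not pass in 1 h FOS+ against 1 h FOS− (8.01 ± 3.48 SE, edgeR adjusted p = 0.967). With so few mice, the lack of called genes does not show that no gene changed. Of the 20 activity genes 12 were tested, with a median log2 fold change of 1.45, 0.93 and 0.86 in these comparisons, against 0.05, −0.02 and 0.05 over all genes tested.

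Values of single activity genes follow by mouse. Fos had a mean level of 1.99 and 2.69 in 1 h FOS+ members of mice 3 and 4, where it was above 1 in 3 of 13 and 6 of 14 nuclei. In 1 h FOS− it was 0.26 and 0 (1 of 10 and 0 of 5 nuclei), and in HC 2.04 and 0 in mice 1 and 2 (5 of 14 and 0 of 6 nuclei). HC mouse 1, whose members were sorted as FOS−, thus overlapped the FOS+ members in Fos transcript. Junb, a partner of FOS, was above 1 in 4 of 13 and 3 of 14 FOS+ members, in 0 of 10 and 0 of 5 FOS− members and in 2 of 14 and 0 of 6 HC members.

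Egr1, a zinc finger early gene, overlapped between conditions, at 1.92 and 2.58 in FOS+, 3.11 and 1.74 in FOS− and 0.59 and 1.57 in HC. Vgf, a secreted peptide precursor, was above 1 in 10 of 13 and 10 of 14 FOS+ members, 6 of 10 and 0 of 5 FOS− members and 6 of 14 and 0 of 6 HC members, at 5.32 and 4.43, 4.10 and 0, and 2.67 and 0. Crh, corticotropin-releasing hormone, was at 2.29 and 1.94 in FOS+, 2.44 and 2.38 in FOS− and 0.87 and 0 in HC, and did not pass in 1 h FOS− against HC (6.38 ± 2.87, edgeR adjusted p = 0.758). Igf1 was at 7.19 and 7.35 in FOS+, 4.90 and 6.07 in FOS− and 8.07 and 4.65 in HC, with HC spanning the other conditions.

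Several early genes were above 1 in a smaller share of VIP members than of excitatory nuclei. Bdnf, the neurotrophin gene, was at 0 in 62 of 62 members and above 1 in 144 of 244 excitatory nuclei, and was the one activity gene at which VIP mice lay below each excitatory mouse (0.83 to 6.53). Arc, a cytoskeletal early gene of dendrites, was above 1 in 2 of 62 members, both FOS+ of mouse 4, and in 105 of 244 excitatory nuclei. Nr4a2 was above 1 in 12 of 62 and 138 of 244, and Homer1 in 18 of 62 and 179 of 244. The excitatory nuclei were deeper, and the part of depth in these shares was not tested. In the gate comparison Bdnf had 6.27 CPM against 181, 849 and 130 (edgeR adjusted p = 0.194) and Arc 5.37 against 250.3, 446 and 49.3 (0.294), and neither passed.

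**Figure D5:**
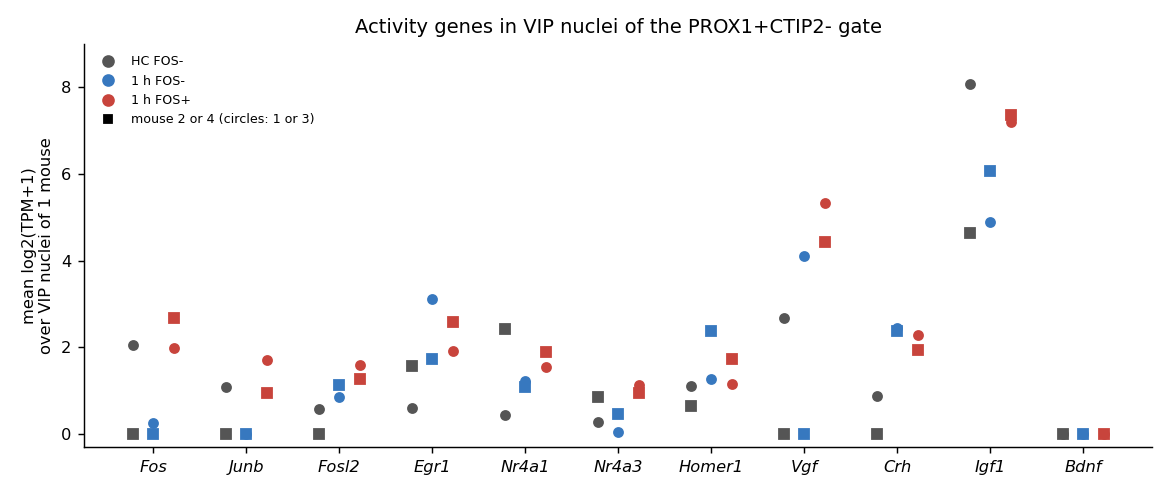
Mean log2(TPM+1) per mouse on the y axis of 11 activity genes in VIP members of the PROX1+CTIP2− gate, with HC FOS− in grey, 1 h FOS− in blue and 1 h FOS+ in red, circles for mice 1 and 3 and squares for mice 2 and 4. Fos is at 1.99 and 2.69 in FOS+ and at 2.04 in HC mouse 1, Bdnf is at 0 in each mouse, and symbols at 0 lie on each other.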

How the data were processed

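Single hippocampal nuclei were sequenced by SmartSeq2. The authors aligned the trimmed reads to mm10 with RSEM and Bowtie and deposited expected counts and log2(TPM+1) values by gene symbol, both used as deposited, and assigned the cell type labels from these transcripts by clustering and random forest. Nuclei with 4000 genes above 1 were kept. Expected counts were rounded and summed per mouse (sort date, exposure, mouse number) where a sum held at least 2 nuclei. The tests were edgeR 4.0.16 with TMM scaling and filterByExpr, run in R 4.3.3 at an adjusted p under 0.05, with DESeq2 1.42.0 and limma 3.58.1 as alternatives. Other steps used Python 3.11.15, pandas 2.3.3, scipy 1.17.1, matplotlib 3.10.9. Scripts were tested on simulated data. Genes named are the members of 16 lists and the 10 largest changes in each direction among called genes whose gate mice did not overlap, with (for VIP conditions) the 5 called genes of smallest p each way, of which there were none. Members and lists were chosen with earlier results of these data known. No pair of members had identical counts. Counts include PCR copies. The p-values of the gate comparison and of the detected gene numbers measure the spread between mice. In the condition fit the FOS+ and FOS− sums of a mouse entered as separate units, so its p-values do not measure that spread alone. Neither the mouse nor the date was a term. FOS+ and FOS− sums of 1 mouse correlated at 0.000692 and 0.0216 after removal of group means. With 2 FOS+ sums these deviations mirror each other, so the correlations cannot show that the sums of a mouse are independent. Named genes matched GENCODE vM21 by symbol (181 of 181). No protein sequences were printed. Mouse number and age recur between the PROX1+CTIP2− and PROX1−CTIP2− dates, and whether these are the same animals is not stated. 1 gene of the lists is not reported here.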

Additional observations from a re-analysis of the deposited data

Results flagged for a closer look

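In VIP members of the PROX1+CTIP2− gate, the called named genes with a mean level above 1, and in 2 gates the thinned gene numbers, 45 sets of values over mice in all, were searched for a mouse far from the rest, and 2 were found, close to the number chance gives at 1 in 20. Lrrc17, a leucine-rich repeat gene, had a mean log2(TPM+1) of 7.87 in mouse 4 and 8.46 to 8.56 in the other 3, and Sez6, a seizure-related gene, 6.42 in mouse 2 and 7.42 to 7.49 in the other 3. Signals in data outside the comparisons were as follows. Of the 18 nuclei of other labels in the PROX1+CTIP2− gate, 17 had a Vip count, while none of 259 nuclei in the other gates did. Of 13 VIP-labelled nuclei under the gene minimum, 9 had Vip above 7, the lowest of these at 7.83 and the highest of the other 4 at 6.86, so the gap of the kept members was narrower there.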

How the results depend on the processing

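The number of genes in the gate comparison (349) depended on the tool and the mice. It was 1868 with DESeq2, 1037 with limma on mean log2(TPM+1), 1144 with limma and the animal as a replicate block, and 51 against the PROX1−CTIP2− gate alone. Leaving out 1 mouse gave 86 to 436 genes, with 86 and 138 without PROX1−CTIP2+ mouse 1 or 2 and 194 and 223 without PROX1+CTIP2− mouse 1 or 3. Of the 61 named genes called, 11 passed under each of 25 settings (among them Vip, Adarb2, Grpr, Tbr1 and Itpka), and 44 did not pass against the PROX1−CTIP2− gate alone, where Runx1t1 reversed (−0.34). The condition comparisons had 0 genes under edgeR and limma settings and without any 1 mouse, and 102, 306 and 174 with DESeq2 for FOS+ and FOS− against HC and FOS+ against FOS−. The mouse as a replicate block also gave 0 genes for FOS+ against FOS− (656 at an unadjusted p under 0.05). The difference in detected genes was −1266 without thinning and −456 to −206 with 1 mouse left out. The VIP minus excitatory difference of Gad2 (6.78 over 6 VIP mice) was 9.03 with a pseudocount of 0.1 and 4.07 with 10, and that of Adarb2 (5.84) was 4.48 with 10. In the 2 mice with both labels, with the mouse as a replicate block, it was 8.12 for Gad2, 0 for Vip (6.29) and −0.18 for Prox1 (1.20), since those mice hold VIP labels of other gates. Other causes were not tested.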
